A study of Mus musculus with 12 samples.

Results

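Voltage-gated calcium channel genes of the mouse heart are described here: Cacna1c, Cacnb2 and Cacna2d1, which encode the subunits of the L-type channel, and Cacna1g and Cacna1h, which encode T-type channels. They were taken as the rows of the gene count matrix that carry these 5 symbols, 5 genes of 27504 in all, and all 5 passed the filter on low counts that left 16723 genes for testing. The label under which the genes were grouped names the L-type channel alone, which does not cover Cacna1g and Cacna1h, so the 5 are called here by their genes. RNA was sequenced from hearts of C57BL/6 wild type mice at postnatal day 45, as 12 libraries in 6 groups of 2. The groups were AngII hearts given vehicle (numbers 1 and 2), gastrodin at 5 mg/kg/day (3 and 4) or gastrodin at 50 mg/kg/day (5 and 6), and sham hearts given vehicle (7 and 8), 5 mg (9 and 10) or 50 mg (11 and 12). AngII hearts are described as a model of cardiac hypertrophy induced with angiotensin II, a hormone that narrows vessels and drives growth of heart muscle. Sham hearts came from mice with the control operation. Whether the AngII hearts had grown was not measured here. Of genes given below, Nppa, Acta1 and Postn were lower and Myh6 was higher in AngII than in sham hearts. Gastrodin, a glucoside from the orchid Gastrodia elata, was given by the gastric route for 7 days, and AngII and sham mice without it received the carrier. The sex of the mice is not stated. Whether the libraries came from different animals is not stated either, and the p-values then measure the spread between these samples only.

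An L-type channel opens when the membrane of a heart muscle cell depolarises and lets in the calcium that triggers release from the sarcoplasmic reticulum and so contraction. Its α1 subunit (Cacna1c, Cav1.2) forms the pore, its β subunit (Cacnb2) brings the pore to the membrane and tunes its gating, and its α2δ subunit (Cacna2d1) sits on the outer face and raises current. T-type channels open at lower voltages, need no β or α2δ partner to conduct, and serve pacemaking. Cacna1g (Cav3.1) and Cacna1h (Cav3.2) encode the cardiac ones, which are more abundant in fetal than in adult ventricle.

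On the mouse genome GRCm38, with GENCODE M21, Cacna1c lay at chr6:118587240-119196418 on the minus strand and Cacnb2 at chr2:14603088-14987908 on the plus strand. Cacna2d1 lay at chr5:15934691-16374511 on the plus strand, Cacna1g at chr11:94408391-94474198 on the minus strand and Cacna1h at chr17:25374285-25433783 on the minus strand. Exon bases were shared with another gene by Cacnb2 (Gm10849, Gm10848 and Gm13269) and Cacna1h (Tpsg1), and those of these neighbours that the matrix lists had 0 counts in every library. Dcp1b, which overlaps Cacna1c on the opposite strand, shared no exon base with it and had at most 287 counts in a library. The counts sum all reads of a gene, so they do not tell its start sites or splice forms apart.

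The RefSeq promoter table for GRCm38.p6, which covers 250 bases before to 50 after a start, held 6 windows of 3 of the 5 genes. These, all of the L-type complex, are printed because the complex holds the gene that moved most between the arms and because their starts differ in base composition. Capitals mark 2 motifs on either strand, TGACG (a half-site of the cAMP response element) and GGGCGG (the GC box, read as CCGCCC on the other strand).
Cacna1c start 1 (chr6:119196360-119196659, minus strand): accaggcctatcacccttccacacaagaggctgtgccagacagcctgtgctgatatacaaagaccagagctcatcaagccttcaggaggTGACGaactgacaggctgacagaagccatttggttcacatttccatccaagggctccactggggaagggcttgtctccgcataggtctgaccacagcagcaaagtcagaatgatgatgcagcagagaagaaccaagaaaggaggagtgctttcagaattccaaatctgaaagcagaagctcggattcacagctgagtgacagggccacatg
Cacna1c start 2 (chr6:119108446-119108745, minus strand): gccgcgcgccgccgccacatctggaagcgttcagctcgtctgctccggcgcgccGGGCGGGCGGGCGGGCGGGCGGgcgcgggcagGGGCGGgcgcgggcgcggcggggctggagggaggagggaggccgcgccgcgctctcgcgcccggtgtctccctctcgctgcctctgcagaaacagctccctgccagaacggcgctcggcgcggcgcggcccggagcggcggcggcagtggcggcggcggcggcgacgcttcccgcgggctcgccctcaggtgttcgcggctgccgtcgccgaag
Cacna1c start 3 (chr6:118757925-118758224, minus strand): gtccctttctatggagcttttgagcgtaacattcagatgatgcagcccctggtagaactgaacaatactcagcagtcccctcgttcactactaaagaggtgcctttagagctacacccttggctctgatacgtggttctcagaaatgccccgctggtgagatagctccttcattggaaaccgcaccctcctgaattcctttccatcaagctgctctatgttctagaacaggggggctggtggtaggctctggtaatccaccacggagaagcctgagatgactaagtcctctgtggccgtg
Cacnb2 start 1 (chr2:14604056-14604355, plus strand): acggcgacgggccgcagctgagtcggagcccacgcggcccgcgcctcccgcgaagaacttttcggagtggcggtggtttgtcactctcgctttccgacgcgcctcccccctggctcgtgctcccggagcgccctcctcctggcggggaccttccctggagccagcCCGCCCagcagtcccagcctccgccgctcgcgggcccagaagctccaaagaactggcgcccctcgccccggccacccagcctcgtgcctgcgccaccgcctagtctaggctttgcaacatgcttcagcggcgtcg
Cacnb2 start 2 (chr2:14823842-14824141, plus strand): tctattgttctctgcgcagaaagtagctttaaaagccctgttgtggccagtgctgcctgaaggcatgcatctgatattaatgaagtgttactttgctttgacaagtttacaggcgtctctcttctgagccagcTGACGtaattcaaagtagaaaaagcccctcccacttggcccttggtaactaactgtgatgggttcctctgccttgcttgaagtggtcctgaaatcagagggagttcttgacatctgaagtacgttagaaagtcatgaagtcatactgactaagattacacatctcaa
Cacna2d1 start 1 (chr5:15934441-15934740, plus strand): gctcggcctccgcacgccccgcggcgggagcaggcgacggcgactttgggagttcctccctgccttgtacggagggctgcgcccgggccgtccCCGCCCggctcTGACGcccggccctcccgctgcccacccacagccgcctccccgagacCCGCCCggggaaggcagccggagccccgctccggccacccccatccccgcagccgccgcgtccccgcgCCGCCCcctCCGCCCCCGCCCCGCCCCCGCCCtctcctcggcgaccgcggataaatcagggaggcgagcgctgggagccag
The first Cacna1c start held 51.3% G and C, 3 CpG pairs, 1 TGACG and 0 GC boxes. The second held 81.3% G and C, 57 CpG pairs, 6 GC boxes, of which 5 overlap one another, and 0 TGACG. The third, at 51.3% G and C with 7 CpG pairs, held neither motif. Cacna2d1 resembled the second, with 80.0% G and C, 42 CpG pairs, 7 GC boxes and 1 TGACG, and Cacnb2 start 1 had 71.7% G and C, 35 CpG pairs, 1 GC box and 0 TGACG. Cacnb2 start 2 had 44.0% G and C, 4 CpG pairs, 1 TGACG and 0 GC boxes. TATAAA, the TATA box, was in none of the 6 windows of the 3 genes on either strand. Of all 32851 promoters of the table, 20.8% held TGACG, 35.7% held GGGCGG and 13.6% held TATAAA, and the median content of G and C was 52.7%. A match is a run of letters and says nothing here about binding.

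The libraries held 63.5 to 78.6 M counts, of which mitochondrial genes took 63.1 to 74.5% and 7 nuclear genes with mitochondrial sequence 15.9 to 19.5%. The share of ribosomal RNA was 11.1% in number 12 of sham 50 mg, 0.984% in number 10 of sham 5 mg and at most 0.201% elsewhere. The remaining nuclear share was 13.2 ± 5.28% in AngII and 8.09 ± 1.47% in sham libraries (SD, n = 6 each), a difference with p = 0.0433 by a 2-sided exact permutation test of the arm labels, and AngII 5 mg number 4, at 7.49%, was the lowest of its arm. Levels are given as CPM, counts per 1 M of the library size after scaling by the trimmed mean of M values (TMM), which lines up the nuclear genes of the libraries. All 10 cardiomyocyte markers were detected, with summed CPM of 5542 to 10348 in AngII and 3786 to 7263 in sham hearts, as the labelled tissue has it. In these bulk samples, fewer cells of a type and less RNA per cell cannot be told apart.

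Cacna1c, the L-type pore, was higher in AngII hearts at every dose of gastrodin and had the largest difference of the 5 genes. Its level was 48.7 and 59.2 CPM in AngII vehicle hearts, 56.2 and 20.8 CPM in AngII 5 mg hearts, and 64.8 and 89.0 CPM in AngII 50 mg hearts. It was 16.3 and 8.44 CPM in sham vehicle, 9.79 and 11.04 CPM in sham 5 mg, and 4.08 and 6.26 CPM in sham 50 mg hearts. The lowest AngII library, 5 mg number 4, lay above the highest sham library, vehicle number 7, so the arms did not overlap. The arms averaged 56.5 ± 22.2 and 9.32 ± 4.24 CPM (SD, n = 6 each), a ratio of means of 6.06, and the counts behind them ran from 1153 to 11210 in AngII and from 222 to 847 in sham. The log2 fold change averaged over the 3 doses was 2.63 ± 0.27 (SE; edgeR's quasi-likelihood test, Benjamini-Hochberg adjusted p = 0.000512), which ranked 8 of 16723 genes by p. Of all genes tested, 4.44% had every AngII library above every sham library.

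**Figure D1:**
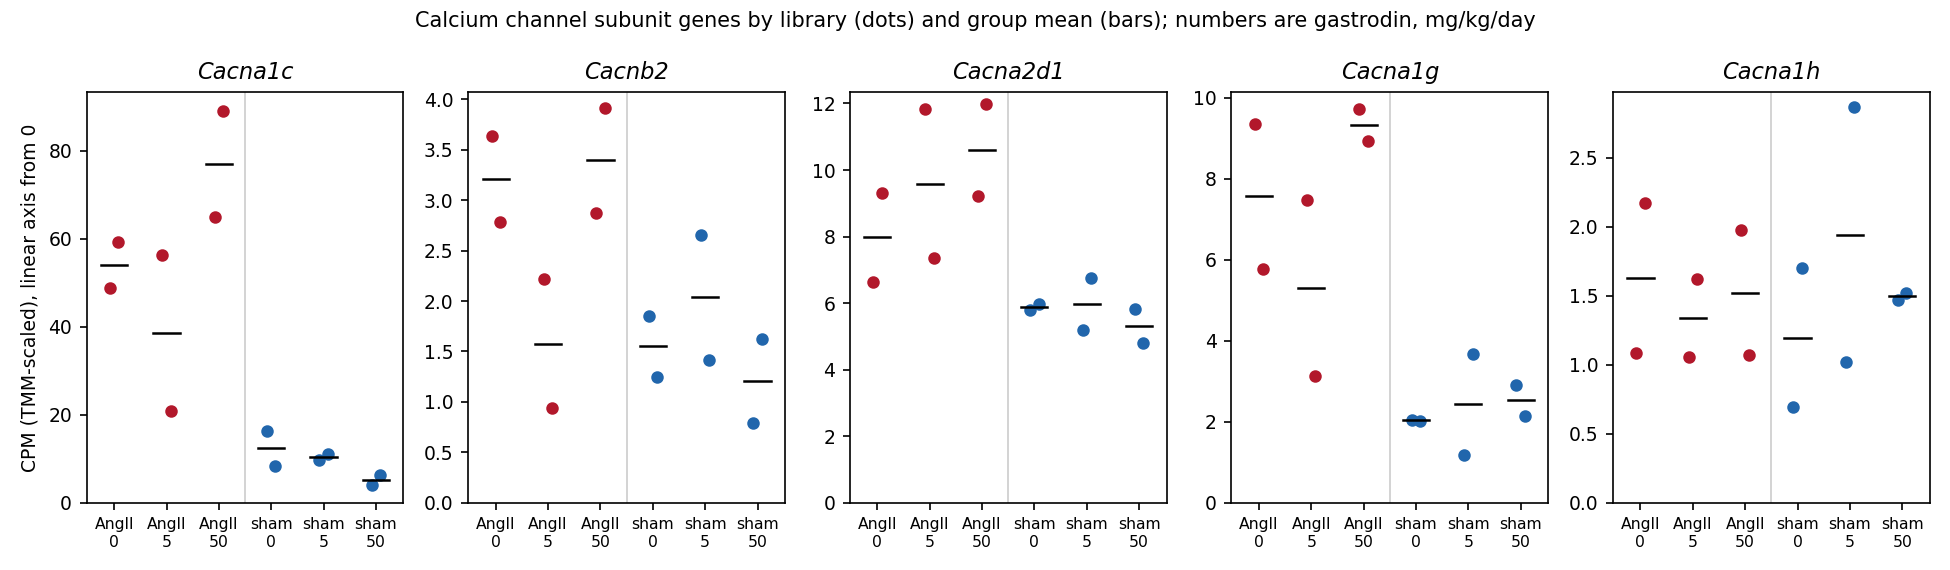
Level of the 5 channel genes in each library (dots) with the group mean (bars), in TMM-scaled CPM on linear axes from 0; AngII groups stand left and sham groups right of the line, by gastrodin dose in mg/kg/day. Cacna1c ran from 20.8 to 89.0 CPM in AngII and from 4.08 to 16.3 CPM in sham libraries, and the arms of Cacna1h overlapped throughout.

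Cacnb2, the β subunit gene, was low in both arms. It had 3.64 and 2.78 CPM in AngII vehicle, 2.22 and 0.936 CPM in AngII 5 mg, and 2.88 and 3.92 CPM in AngII 50 mg hearts. Sham hearts had 1.85 and 1.25 CPM with vehicle, 2.66 and 1.42 CPM with 5 mg, and 0.791 and 1.62 CPM with 50 mg. Both AngII vehicle and both AngII 50 mg libraries lay above all sham libraries, while AngII 5 mg number 4 lay below all sham libraries but 1. The means were 2.73 ± 1.07 CPM in AngII and 1.60 ± 0.631 CPM in sham hearts, with a log2 fold change of 0.73 ± 0.29 that did not pass (edgeR adjusted p = 0.0926). Leaving out 1 library at a time gave log2 fold changes from 0.50, without AngII 5 mg number 3, to 0.94, with 0.90 without AngII 5 mg number 4. With no filter on low counts it was 0.76 and passed (edgeR adjusted p = 0.0432), where edgeR called 2899 of 24851 genes higher and 1478 lower. Cacnb2 did not pass with DESeq2 (0.73, adjusted p = 0.0816) or limma-voom (0.82, adjusted p = 0.0539). As few as 52 counts in an AngII library and 43 in a sham library stand behind these levels.

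Cacna2d1, the α2δ subunit gene, was the steadiest of the 5 within sham hearts. Its level was 6.64 and 9.31 CPM in AngII vehicle, 11.8 and 7.34 CPM in AngII 5 mg, and 9.20 and 11.99 CPM in AngII 50 mg hearts. Sham hearts had 5.81 and 5.96 CPM with vehicle, 5.20 and 6.75 CPM with 5 mg, and 5.83 and 4.81 CPM with 50 mg. Of the AngII libraries 5 lay above every sham library, and AngII vehicle number 1 lay just below the highest, sham 5 mg number 10. The means were 9.39 ± 2.21 CPM in AngII and 5.73 ± 0.671 CPM in sham hearts, and the log2 fold change of 0.71 ± 0.19 passed (edgeR adjusted p = 0.0203). The call was lost without any 1 of AngII 50 mg number 6, sham vehicle number 8, sham 5 mg number 9 or sham 50 mg number 12, with log2 fold changes of 0.66, 0.72, 0.65 and 0.67 (edgeR adjusted p = 0.0595, 0.0517, 0.0614 and 0.0617). It was lost too with limma on log2(TPM + 1) and no filter (0.85, limma adjusted p = 0.069).

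Cacna1g, which encodes the T-type channel Cav3.1, was also higher in AngII hearts. It stood at 9.37 and 5.77 CPM in AngII vehicle, 7.49 and 3.13 CPM in AngII 5 mg, and 9.72 and 8.93 CPM in AngII 50 mg hearts. Sham hearts had 2.04 and 2.02 CPM with vehicle, 1.17 and 3.69 CPM with 5 mg, and 2.91 and 2.15 CPM with 50 mg. The arms overlapped by 1 library each: AngII 5 mg number 4 lay below sham 5 mg number 10. The means were 7.40 ± 2.55 CPM in AngII and 2.33 ± 0.862 CPM in sham hearts, with a log2 fold change of 1.64 ± 0.30 (edgeR adjusted p = 0.00404), a call that held with each library left out in turn.

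Cacna1h, which encodes the T-type channel Cav3.2, had overlapping arms, and its difference did not pass. AngII hearts had 1.08 and 2.18 CPM with vehicle, 1.05 and 1.62 CPM with 5 mg, and 1.98 and 1.07 CPM with 50 mg. Sham hearts had 0.694 and 1.70 CPM with vehicle, 1.02 and 2.87 CPM with 5 mg, and 1.47 and 1.52 CPM with 50 mg. The lowest and the highest of the 12 libraries were both sham, and the means were 1.497 ± 0.501 CPM in AngII and 1.55 ± 0.746 CPM in sham hearts. The log2 fold change of -0.03 ± 0.35 had an edgeR adjusted p of 0.976, and its direction turned under several settings, among them the deposited TPM without TMM scaling (0.07). It had 36 to 172 counts per library, and its standard error was the largest of the 5.

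Of the 5 genes, 3 were called higher and 0 lower for AngII against sham averaged over the doses, with 4 at an unadjusted p under 0.05. Among all 16723 genes tested, 13.4% were called higher and 7.53% lower, and the median log2 fold change was 0.10. DESeq2 and limma-voom each called 3 of the 5 higher and 0 lower, where DESeq2 called 16.8% of all genes higher and 10.7% lower and limma-voom 15.6 and 11.2%. edgeR called 2241 genes higher and 1260 lower with TMM, and 2245 and 1254 with the size factors of DESeq2. It called 1694 higher and 1753 lower after removal of the trend on GC content in each library, and 398 and 74 with the nuclear share in the model. With limma on the deposited TPM, a fit that differs in scaling, transform, test and filter at once (a mean of at least 1 TPM), 1318 genes were higher and 19 lower, with a median of 0.40 on the log2(TPM + 1) scale.

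**Figure D2:**
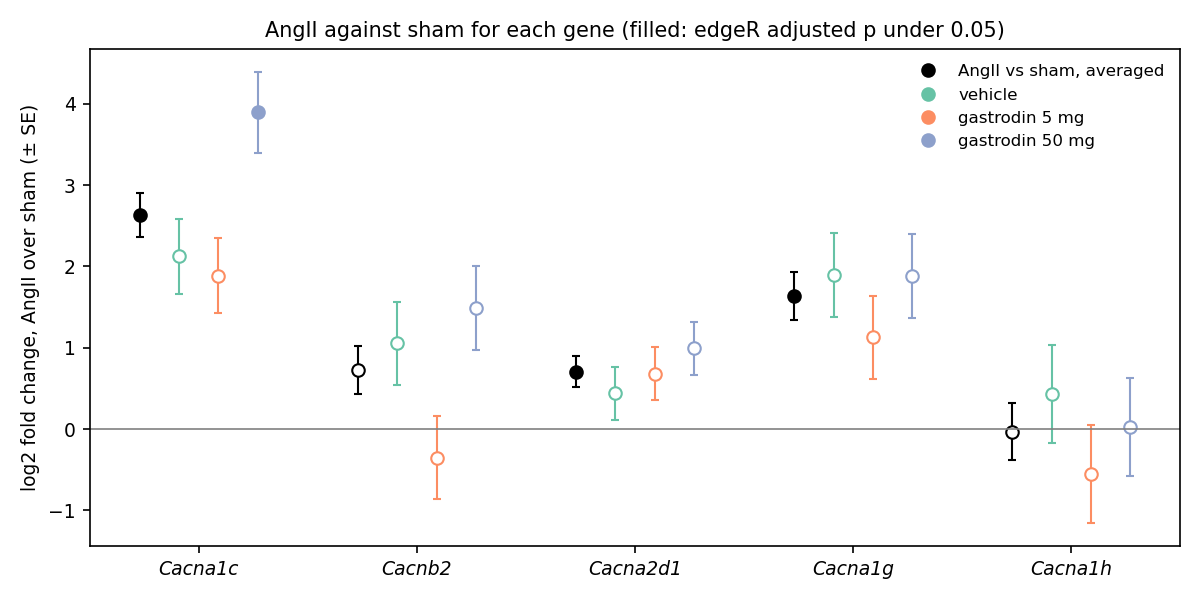
Log2 fold change of AngII over sham (y axis, ± SE) for each gene, averaged over the doses (black) and at each dose (colours); filled symbols passed edgeR's adjusted p of 0.05. Cacna1c was above 0 in all 4 comparisons, at 3.89 ± 0.50 with 50 mg, and Cacnb2 and Cacna1h lay on either side of 0 by dose.

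Within each dose, 2 AngII libraries stand against 2 sham libraries. Against sham vehicle, AngII vehicle hearts had log2 fold changes of 2.12 ± 0.46 for Cacna1c and 1.90 ± 0.52 for Cacna1g (edgeR adjusted p = 0.0995 and 0.152). Cacnb2 was at 1.05 ± 0.51, Cacna2d1 at 0.44 ± 0.32 and Cacna1h at 0.43 ± 0.60. None of the 5 passed edgeR's test, 2 had an unadjusted p under 0.05, and edgeR called 0.0598% of all genes. DESeq2 called 2 of the 5, against 4.6% of all genes with an adjusted p, and limma-voom called 0, against 0.0299%. Without AngII 5 mg number 3 or number 4, edgeR called 2 of the 5, Cacna1c and Cacna1g, where it called 2.69 and 2.94% of all genes.

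At 5 mg, AngII against sham hearts gave 1.89 ± 0.46 for Cacna1c, 1.13 ± 0.51 for Cacna1g and 0.68 ± 0.32 for Cacna2d1 on the log2 scale. Cacnb2 was at -0.35 ± 0.51 and Cacna1h at -0.55 ± 0.61. None of the 5 passed edgeR's test (lowest adjusted p = 0.255, for Cacna1c), 2 had an unadjusted p under 0.05, and edgeR called 0% of all genes. DESeq2 called 1 of the 5, against 1.79% of all genes with an adjusted p, and limma-voom 0, against 0%. Without AngII 5 mg number 4, Cacna1c was at 2.44 and passed (edgeR adjusted p = 0.00588), where edgeR called 6.52% of all genes.

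At 50 mg the arms lay farthest apart for Cacna1c, at 76.9 ± 17.1 CPM in AngII and 5.17 ± 1.54 CPM in sham hearts (SD, n = 2 each). Its log2 fold change of 3.89 ± 0.50 passed (edgeR adjusted p = 0.0032), as did 5.42% of all genes. Cacna1g was at 1.88 ± 0.52, Cacnb2 at 1.49 ± 0.52 and Cacna2d1 at 1.00 ± 0.33, with edgeR adjusted p of 0.0518, 0.107 and 0.0902. Cacna1h was at 0.02 ± 0.60. DESeq2 called 3 of the 5 at this dose, against 14.2% of all genes with an adjusted p. Without AngII 5 mg number 3 or number 4, edgeR called 4 of the 5, where it called 11.3% of all genes in either fit. It called 2 of the 5 without AngII vehicle number 1 or 2, or sham 5 mg number 9 or 10, where it called 5.11, 5.27, 4.65 and 4.66% of all genes.

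Gastrodin against vehicle within an arm moved none of the 5 genes past the test. Ordered by mean, Cacna1c was highest in AngII 50 mg (76.9 ± 17.1 CPM), then AngII vehicle (54.0 ± 7.46), AngII 5 mg (38.5 ± 25.1), sham vehicle (12.4 ± 5.59), sham 5 mg (10.4 ± 0.884) and sham 50 mg (5.17 ± 1.54). Among neighbours in that order, the libraries of AngII vehicle and AngII 5 mg overlapped, as did those of sham vehicle and sham 5 mg. For Cacna2d1 and Cacna1h, the libraries of every pair of neighbouring groups overlapped. The single gap was between AngII 5 mg and sham 50 mg for Cacna1g, and between AngII vehicle and sham 5 mg for Cacnb2. How many of all genes have such gaps between groups of 2 libraries was not counted, so the gaps cannot be weighed.

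In AngII hearts, 5 mg against vehicle gave log2 fold changes between -1.01 ± 0.51 (Cacnb2) and 0.27 ± 0.32 (Cacna2d1), with Cacna1c at -0.49 ± 0.44. For 50 mg against vehicle they lay between -0.10 ± 0.60 (Cacna1h) and 0.51 ± 0.44 (Cacna1c). Both doses are set against the same vehicle libraries. edgeR called 0.00598% of all genes at 5 mg and 0.012% at 50 mg, and of the 5 genes it, DESeq2 and limma-voom called 0, with 0 at an unadjusted p under 0.05. Without AngII 5 mg number 4, the 5 mg value of Cacna1c was 0.06.

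In sham hearts, 5 mg against vehicle gave values from -0.25 ± 0.45 (Cacna1c) to 0.69 ± 0.61 (Cacna1h), where edgeR called 0.0179% of all genes and none of the 5, with 0 at an unadjusted p under 0.05. At 50 mg, sham libraries had 4.08 and 6.26 CPM of Cacna1c, against 16.3 and 8.44 CPM with vehicle. The log2 fold change against sham vehicle was -1.26 ± 0.45 (edgeR adjusted p = 0.401). The other 4 genes lay between -0.35 and 0.31, and edgeR called 0.149% of all genes. Among the 5, edgeR, DESeq2 and limma-voom called 0 in sham hearts at either dose, with 1 at an unadjusted p under 0.05 at 50 mg.

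The difference between the arms in the response to gastrodin was tested as an interaction. At 50 mg it was 1.77 ± 0.63 on the log2 scale for Cacna1c (edgeR adjusted p = 0.639), and between -0.41 and 0.56 for the other 4 genes. At 5 mg it was -0.24 ± 0.63 for Cacna1c and lowest for Cacnb2, at -1.41 ± 0.72. edgeR called 0.0299% of all genes at 50 mg and 0.00598% at 5 mg. Of the 5 genes, edgeR, DESeq2 and limma-voom called 0 at either dose, with 1 at an unadjusted p under 0.05 at 50 mg and 0 at 5 mg.

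Because scaling between libraries cancels in a ratio of genes within a library, the 10 pairs were also compared as log2 ratios of counts. The log2 ratio of Cacnb2 to Cacna1c was -4.38 ± 0.32 in AngII and -2.50 ± 0.53 in sham hearts (SD, n = 6 each), a difference of -1.87 (2-sided exact permutation of the arm labels, p = 0.0108 adjusted over the 10 pairs). That of Cacna2d1 to Cacna1c was -2.50 ± 0.55 in AngII and -0.58 ± 0.66 in sham hearts, a difference of -1.92 with the same adjusted p by the exact test. In both pairs every AngII library lay below every sham library, so the pore gene gained on both partner subunits. Cacna1c is in both pairs, and its level alone separated the arms. How many of all genes give such a ratio to Cacna1c was not counted. The 2 ratios therefore cannot show a shift particular to the partner subunits. Their unadjusted p is the smallest that permutations of 6 against 6 libraries allow.

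Cacna1h against Cacna1c differed by -2.59 between the arms (exact permutation, adjusted p = 0.0144) and Cacna1h against Cacna1g by -1.63 (adjusted p = 0.026), so the T-type genes shifted against each other. The same limit holds here, since Cacna1c and Cacna1g were each called higher on their own. Cacna1g against Cacna2d1 differed by 0.97 (exact permutation, adjusted p = 0.026). Cacna1g against Cacna1c, at -0.95, and Cacna1g against Cacnb2, at 0.92, did not pass (exact permutation, adjusted p = 0.0758 and 0.0866). The ratio of Cacna2d1 to Cacnb2 was 1.88 ± 0.72 in AngII and 1.92 ± 0.67 in sham hearts, a difference of -0.04 (exact permutation, adjusted p = 0.97). Cacna1h against Cacnb2 (-0.71) and against Cacna2d1 (-0.67) did not pass either (exact permutation, adjusted p = 0.279 and 0.133).

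**Figure D3:**
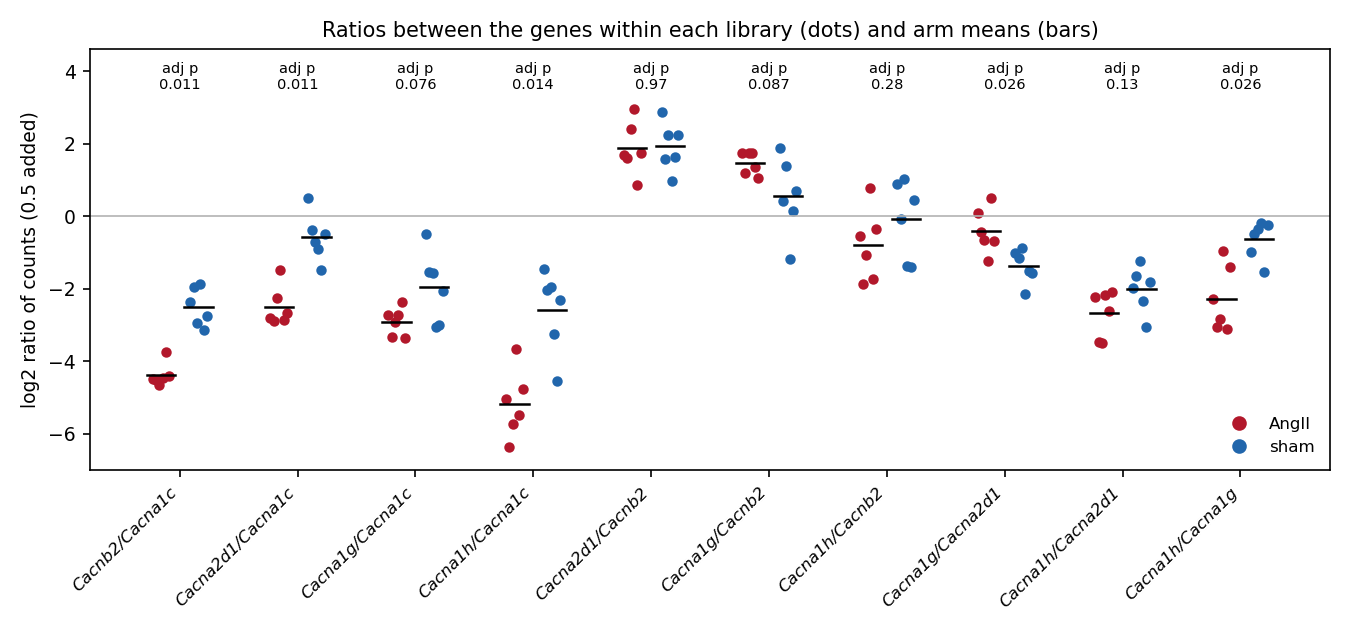
Log2 ratio of the counts of each pair of genes in each library (dots; 0.5 added to each count) with the mean of each arm (bars), AngII left of sham; the exact permutation p adjusted over the 10 pairs stands above. The ratios of Cacnb2 and Cacna2d1 to Cacna1c averaged -4.38 and -2.50 in AngII and -2.50 and -0.58 in sham libraries.

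Levels of different genes can be compared only per length, for which the deposited TPM (counts divided by gene length and scaled to 1 sum in each library) were read within each library. In AngII hearts Cacna1c was the highest of the 5 genes in 5 of 6 libraries, at 5.75 ± 3.54 TPM, before Cacna2d1 (3.21 ± 1.89), Cacnb2 (2.37 ± 1.34), Cacna1g (1.22 ± 0.646) and Cacna1h (0.210 ± 0.0440). In sham hearts Cacna2d1 was the highest in 5 of 6 libraries, at 1.17 ± 0.269 TPM, before Cacnb2 (0.807 ± 0.257), Cacna1c (0.547 ± 0.216), Cacna1g (0.234 ± 0.0984) and Cacna1h (0.155 ± 0.0871). Cacna1c exceeded Cacna2d1 in 5 of 6 AngII and 0 of 6 sham libraries. The length implied by these TPM puts Cacnb2 at 11.6% and Cacna2d1 at 29.5% of Cacna1c, where the longest GENCODE transcripts give 38.2 and 56.5%. Per kilobase of the longest transcript, Cacna1c exceeded Cacna2d1 in 6 of 6 AngII and 2 of 6 sham libraries, and Cacnb2 in 6 of 6 of each, so its place in sham hearts depends on the length used.

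Among the α1 genes with TPM values (6 genes), Cacna1c made up 71.2 ± 6.39% of their summed TPM in AngII hearts (63.8 to 79.5%) and 47.5 ± 12.4% in sham hearts (31.2 to 66.5%). Cacna1g held 12.2 to 20.2% in AngII and 11.01 to 36.6% in sham hearts, with means of 15.9 and 21.2%, and Cacna1h 3.66 ± 2.37 and 13.5 ± 5.51%. Cacna1s, the L-type pore of skeletal muscle, held 4.70 ± 2.05% in AngII and 11.4 ± 6.73% in sham hearts. A share depends on the other members of the sum, and the Cacna1g share was lower in AngII while its CPM was higher.

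The other channel subunits were read from lists of the gene family. For these and all lists that follow, the counts called stand against 13.4% higher and 7.53% lower among all genes tested. Of 7 further α1 genes 4 were tested and 1 rose: Cacna1a, the P/Q-type pore of nerve terminals, at 1.17 ± 0.566 CPM in AngII and 0.454 ± 0.189 CPM in sham hearts (log2 fold change 1.35 ± 0.44, edgeR adjusted p = 0.0448). Of 3 further β genes 2 rose. Cacnb1, the β subunit of skeletal muscle, stood at 4.24 ± 0.789 CPM in AngII and 1.81 ± 0.935 CPM in sham hearts (log2 fold change 1.34 ± 0.26, edgeR adjusted p = 0.00559). Cacnb4 stood at 0.575 ± 0.267 CPM in AngII and 0.0666 ± 0.0610 CPM in sham hearts (3.03 ± 0.85, edgeR adjusted p = 0.0255), with counts in 4 of 6 sham libraries, so its fitted value depends on the prior count. Neither of 2 further α2δ genes tested passed.

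Of 3 γ subunit genes tested 1 fell: Cacng7, at 0.799 ± 0.253 CPM in AngII and 1.84 ± 1.11 CPM in sham hearts (log2 fold change -1.02 ± 0.30, edgeR adjusted p = 0.0304). Cacng5 had no count in any library. The RGK proteins are small GTPases that bind β subunits and hold L-type current down. Of 3 tested, Gem fell, at 1.25 ± 0.381 CPM in AngII and 2.50 ± 1.13 CPM in sham hearts (-0.92 ± 0.30, edgeR adjusted p = 0.0428). Rrad, at 14.9 ± 3.43 CPM in AngII and 14.2 ± 7.10 CPM in sham hearts, and Rem1 did not pass.

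**Figure D4:**
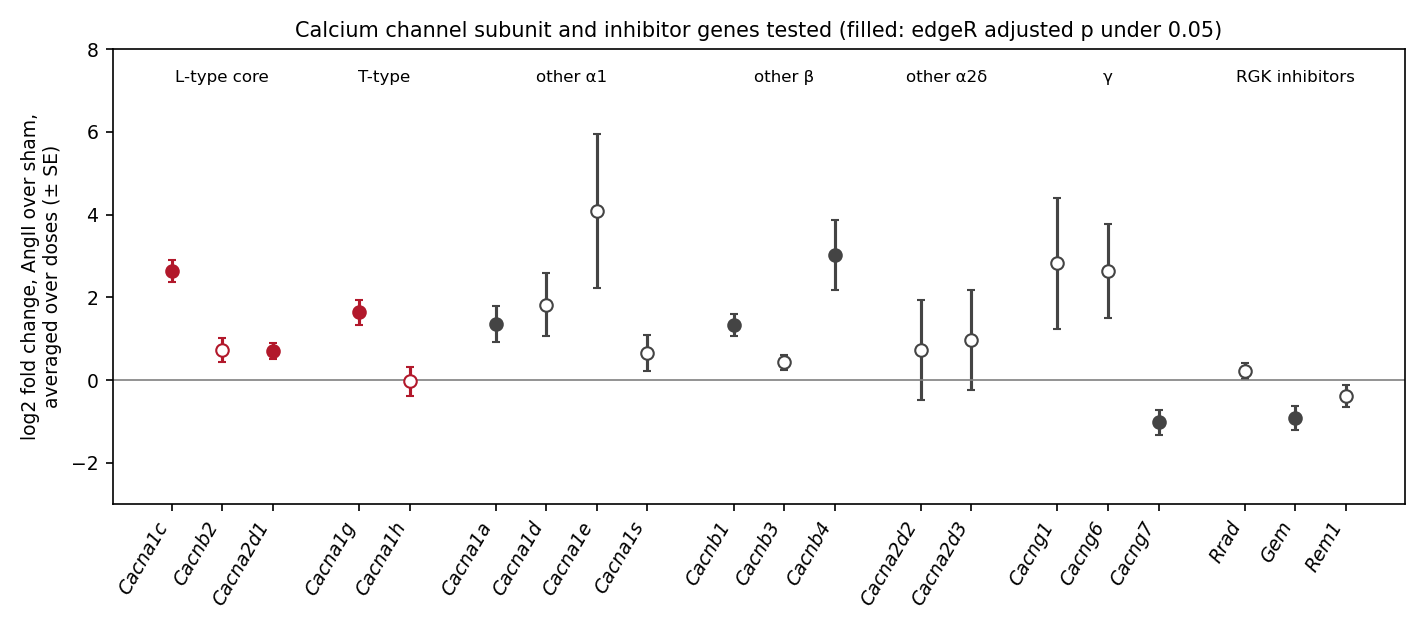
Log2 fold change of AngII over sham averaged over the doses (y axis, ± SE) for the 5 genes (red) and the other tested calcium channel subunit and RGK genes (grey), grouped by role; filled symbols passed edgeR's adjusted p of 0.05. Cacna1c lies at 2.63 ± 0.27, while Cacna1e, at 4.10 ± 1.86, has counts in 1 of 6 sham libraries and did not pass.

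Beta-adrenergic signalling raises L-type current through adenylyl cyclase and protein kinase A, and calmodulin closes the channel as calcium enters. Of 20 genes of these routes tested, 2 rose and 4 fell, with a median log2 fold change of -0.11. Adcy6, a main adenylyl cyclase of heart muscle, stood at 91.2 ± 40.2 CPM in AngII and 20.0 ± 4.30 CPM in sham hearts (log2 fold change 2.17 ± 0.31, edgeR adjusted p = 0.0014). Akap9, an anchor for protein kinase A, rose by a log2 fold change of 1.30 ± 0.31, and Prkacb, a catalytic subunit of the kinase, was at -0.92 ± 0.24 (edgeR adjusted p = 0.0127 and 0.0181). The regulatory subunit gene Prkar1a and the calmodulin genes Calm2 and Calm3 were the others that fell, named after their values were seen, and calmodulin genes have near-identical copies that counting can split.

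Of 12 genes for anchoring and trafficking of the channel, Cacnb2 among them, 2 rose and 2 fell, with a median of 0.07. Among all genes tested, 13.4% were called higher and 7.53% lower, so these counts are not read as a result about the list. Stac3, an adaptor of the skeletal muscle channel, stood at 0.360 ± 0.258 CPM in AngII and 0.0479 ± 0.0811 CPM in sham hearts (edgeR adjusted p = 0.0102), with counts in 2 of 6 sham libraries. Sri, which encodes the calcium-binding protein sorcin, fell to 7.46 ± 2.67 CPM in AngII, against 14.7 ± 0.989 CPM in sham hearts (log2 fold change -0.99 ± 0.23, edgeR adjusted p = 0.0114). Dlg1, a membrane scaffold, was at -0.95 ± 0.24 (edgeR adjusted p = 0.0179), and the ankyrin gene Ank2, named after its values were seen, was the other that rose.

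Of 12 genes of calcium release and uptake, 4 rose and 1 fell, with a median of -0.24. Ryr2, the release channel that L-type calcium opens, stood at 40.98 ± 10.99 CPM in AngII and 18.8 ± 3.42 CPM in sham hearts (log2 fold change 1.12 ± 0.21, edgeR adjusted p = 0.00504). Atp2a2, the calcium pump of the reticulum, stood at 278 ± 39.2 CPM in AngII and 158 ± 29.7 CPM in sham hearts (0.83 ± 0.17, edgeR adjusted p = 0.0062). Trdn, which anchors the release complex, fell to 44.9 ± 5.45 CPM in AngII, against 94.7 ± 21.6 CPM in sham hearts (-1.07 ± 0.18, edgeR adjusted p = 0.00308). Hrc and Itpr2, named after their values were seen, were the others that rose.

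Of 12 genes for transcription factors tied to these channels or to calcium signals, 1 rose and 2 fell, with a median of -0.06. Nfatc2, a factor that calcineurin activates, stood at 7.88 ± 2.84 CPM in AngII and 3.16 ± 0.796 CPM in sham hearts (log2 fold change 1.31 ± 0.23, edgeR adjusted p = 0.00353). Sp1, which binds GC boxes, fell to 2.56 ± 1.04 CPM in AngII, against 4.98 ± 0.556 CPM in sham hearts (-0.99 ± 0.27, edgeR adjusted p = 0.0246). Creb1, which binds cAMP response elements, was at 2.196 ± 1.39 CPM in AngII and 3.59 ± 1.96 CPM in sham hearts (-1.12 ± 0.34, edgeR adjusted p = 0.0351). A link of these factors to the channel genes was not tested.

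The genes whose pattern over the 12 libraries was most like that of each channel gene were found by the root mean square difference of centred log2 CPM among 7089 genes. For Cacna1c they were Vegfa, a vessel growth factor (0.366), Xpo6, which exports actin from the nucleus (0.396), and the long noncoding RNA Firre (0.397), where Cacna1c itself varied by 1.45 about its mean. For Cacna1g they were Ifnar1 (0.255), Trip11 (0.258) and Clk3 (0.262) against its own 0.982, and for Cacna2d1 Stom (0.176), Ppil2 (0.195) and Psmb5 (0.198) against 0.423. For Cacnb2 they were Ubr1 (0.321), Tbce (0.349) and Plekhh3 (0.350) against 0.705, and for Cacna1h Sardh (0.317), Fndc3a (0.334) and Ndufa4l2 (0.337) against 0.534. Among the channel genes the nearest pair, Cacnb2 and Cacna2d1, differed by 0.629, and Cacna1c and Cacna1h by 1.59. The genes named above are the closest of 7089, so smaller differences for them were bound to be found. The usual difference between 2 genes was not measured, so whether the channel genes were alike is not shown.

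The nuclear share of counts was higher in AngII than in sham libraries. How levels went with it within an arm was not measured, and the single libraries below are examples. AngII 5 mg number 4, with the smallest nuclear share of its arm (7.49%), had the lowest Cacna1c, Cacnb2 and Cacna1g of the AngII libraries, and numbers 3 and 6, with 20.3 and 18.7%, had the highest Cacna2d1. Numbers 3 and 6 also had the lowest Cacna1h of the AngII libraries, at 1.05 and 1.07 CPM, and Cacna1g was highest in AngII 50 mg number 5, with a share of 9.66%. In sham, vehicle number 8 had the largest share (10.4%) and less Cacna1c than number 7, at 8.44 against 16.3 CPM. With the share as a covariate, the log2 fold change averaged over doses was 2.21 for Cacna1c and passed (edgeR adjusted p = 0.0019). It was 1.24 for Cacna1g, 0.50 for Cacna2d1 and 0.30 for Cacnb2, and none of these passed (edgeR adjusted p = 0.0575, 0.186 and 0.68). With each library's trend on gene length removed, it was 2.18 for Cacna1c, 1.35 for Cacna1g and 0.54 for Cacna2d1, and all 3 passed (edgeR adjusted p = 0.000875, 0.00675 and 0.0419).

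**Figure D5:**
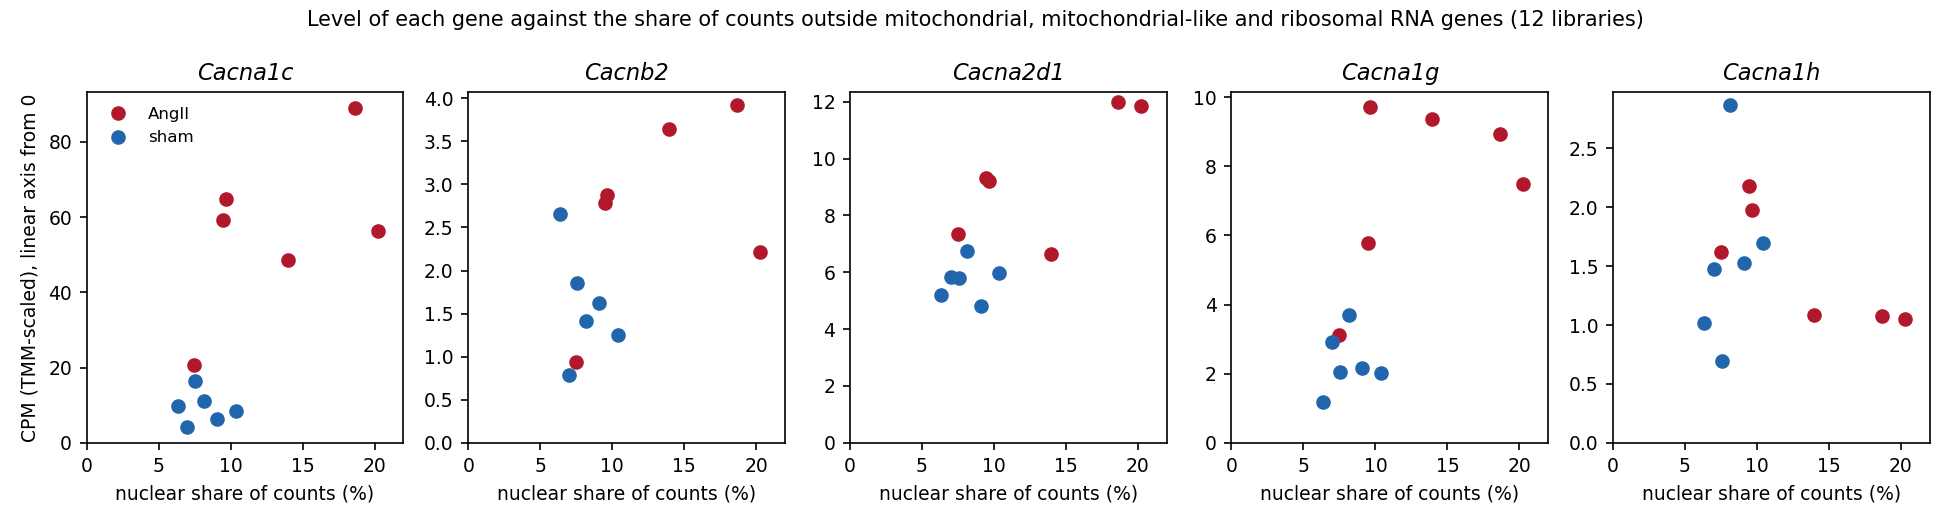
Level of each gene (TMM-scaled CPM, linear axes from 0) against the percentage of counts outside mitochondrial genes, the 7 nuclear genes with mitochondrial sequence and ribosomal RNA genes, 1 dot per library, AngII red and sham blue. Sham libraries lie between 6.34 and 10.4% and AngII libraries between 7.49 and 20.3%. Cacna1c was at 20.8 CPM in AngII 5 mg number 4 (7.49%) and 16.3 CPM in sham vehicle number 7 (7.55%). It was at 64.8 CPM in AngII 50 mg number 5 (9.66%) and 6.26 CPM in sham 50 mg number 12 (9.08%).

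Of 7 tested genes for long noncoding RNAs, most of which stay in the nucleus, 4 rose and 0 fell. Neat1 stood at 635 ± 157 CPM in AngII and 323 ± 119 CPM in sham hearts, and Malat1 at 306 ± 45.8 CPM in AngII and 144 ± 44.6 CPM in sham hearts (edgeR adjusted p = 0.0317 and 0.00565). These 2 make up most of the summed level of the list, 732 to 1185 CPM in AngII and 253 to 648 CPM in sham libraries. Meg3 rose as well (10.9 ± 5.28 CPM in AngII and 2.62 ± 1.54 CPM in sham hearts, edgeR adjusted p = 0.00213). Mirg rose too (0.568 ± 0.208 CPM in AngII and 0.0640 ± 0.0812 CPM in sham hearts, edgeR adjusted p = 0.00517). Kcnq1ot1, Rian and Gas5 did not pass, with log2 fold changes of 0.68, -0.15 and -0.42 (edgeR adjusted p = 0.373, 0.702 and 0.299). Neat1 and these 3 were named after their values were seen. The part of nuclear RNA in the channel genes' differences was not tested.

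Markers of other cells that carry these channels also moved between the arms, where 13.4% of all genes tested were called higher and 7.53% lower. Of 12 smooth muscle and pericyte markers, cells that use Cacna1c as well, 7 rose and 0 fell, with summed levels of 353 to 589 CPM in AngII and 247 to 401 CPM in sham hearts. The largest term of that sum is Des, named after its values were seen. Des stood at 212 ± 34.6 CPM in AngII and 193 ± 65.7 CPM in sham hearts and did not pass (edgeR adjusted p = 0.575). Smtn, Acta2 and Notch3 had log2 fold changes of 1.25 ± 0.21, 1.40 ± 0.29 and 1.32 ± 0.28 (edgeR adjusted p = 0.00282, 0.00722 and 0.00766). Of 10 endothelial markers 6 rose and 0 fell (111 to 246 CPM in AngII and 82.7 to 106 CPM in sham hearts), among them Esam, Tie1 and Vwf at 1.36 ± 0.26, 1.26 ± 0.26 and 0.97 ± 0.23. Of 9 fibroblast markers 0 rose and 7 fell (101 to 159 CPM in AngII and 117 to 418 CPM in sham hearts), among them Postn, Lum and Col3a1 at -1.93 ± 0.28, -1.41 ± 0.25 and -1.04 ± 0.23.

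Of the 10 cardiomyocyte markers 5 rose and 1 fell. Ryr2 (above), Ttn at 1.57 ± 0.32 and Myh6 at 1.34 ± 0.28 were among those that rose (edgeR adjusted p = 0.007 and 0.00713 for the last 2). Actc1 fell, at -0.72 ± 0.24 (edgeR adjusted p = 0.0494). The 4 that did not pass went both ways: Tnnt2 at 0.01, Myl2 at 0.24, Ckm at 0.56 and Myl3 at -0.30. Actc1 and these 4 were named after their values were seen. Myh6, at 3202 ± 1134 CPM in AngII and 1294 ± 455 CPM in sham hearts, is the largest term of the list's sum. Of 6 pacemaker and conduction markers, whose cells use T-type channels, 1 rose: Hcn4, at 0.709 ± 0.215 CPM in AngII and 0.221 ± 0.175 CPM in sham hearts (edgeR adjusted p = 0.0316). The summed level of that list was 3.61 to 6.39 CPM in AngII and 2.46 to 4.18 CPM in sham hearts.

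Of 6 atrial markers 1 rose and 1 fell, with summed levels of 99.8 to 226 CPM in AngII and 319 to 702 CPM in sham hearts. Nearly all of that sum is Nppa, so it does not measure atrial tissue. The 4 markers that did not pass went both ways: Myl4 and Nr2f2 had log2 fold changes of 0.57 and 0.46, Dkk3 and Sln of -0.62 and -1.27. Nppa fell to 170 ± 48.6 CPM in AngII, against 485 ± 156 CPM in sham hearts, and Myl7 was at 0.437 ± 0.475 CPM in AngII and 0.0328 ± 0.0370 CPM in sham hearts (edgeR adjusted p = 0.00197 and 0.0145). Of 5 skeletal muscle genes tested 1 fell, Acta1, with Myh2 and Myh4 at 0 counts throughout. The summed levels of 131 to 291 CPM in AngII and 167 to 925 CPM in sham hearts are nearly all Acta1. Acta1 alone was at 204 ± 60.8 CPM in AngII and 572 ± 312 CPM in sham hearts, so the sum does not measure skeletal muscle. Of 5 nerve and glia genes none passed (4.84 to 12.3 CPM in AngII and 3.21 to 7.13 CPM in sham hearts). Of 3 lung genes tested 2 rose, Scgb1a1 and Scgb3a1, with summed levels of 2.14 to 11.4 CPM in AngII and 0.0559 to 2.61 CPM in sham hearts. The part of these cell types in the channel genes' levels was not tested.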

How the data were processed

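RNA of 12 heart samples was made into TruSeq libraries from 1 µg each and sequenced as paired ends of 250 bases, per the labels' protocols. HISAT2 2.2.1, StringTie 2.1.3 and the genome GRCm38.p6 are named in the submitters' processing notes; the sources used here do not state how reads were counted, or with which annotation and strand setting. The matrix deposited by the authors gives raw counts of 27504 genes, whole numbers without normalisation. Low counts recur at steps of about 4 (8349 values of 4 against 2831 of 3), so a count is not 1 independent read and intervals from counting error are not given. The deposited TPM values, named so per the file headers, list 14271 genes and equal the count times a constant for each gene and library.

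Counts were tested with edgeR 4.0.16 in R 4.3.3: genes kept by filterByExpr by group, TMM scaling, 1 mean per group over the 12 libraries (6 residual degrees of freedom), quasi-likelihood F-tests, 2-sided, Benjamini-Hochberg over all 16723 genes, threshold 0.05. Standard errors are log2 fold changes over the square root of F. Ratios within a library were tested by exact permutation with 0.5 added to each count. Alternatives used DESeq2 1.42.0, limma 3.58.1, other filters and scalings, covariates, TPM and left-out libraries. The members and gene lists were chosen with earlier results of these data known. The text names the 5 genes, the 3 called genes of each list with the smallest p and the 3 genes most like each channel gene (mean log2 CPM at least 1), predicted genes and pseudogenes aside.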

Additional observations from a re-analysis of the deposited data

Results flagged for a closer look

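The log2 ratio of Cacnb2 to Cacna1c was checked for a library far from the others of its arm. In the 6 AngII libraries, which lay between -4.66 and -3.74 with a mean of -4.38, 1 library stood apart: its gap to the nearest of the others was 0.725 of the arm's whole range, more than Dixon's limit for 6 samples. Of 30 arms checked in this way (5 gene levels and 10 ratios, in AngII and in sham hearts) 1 passed the limit, and chance flags about 1 in 20 groups. The library was AngII vehicle number 1, in which Cacnb2 was higher relative to Cacna1c than in the other AngII libraries. No cause was tested.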

How the results depend on the processing

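No paired analysis was possible because the replicate numbers run from 1 to 12 and are shared by no groups. For AngII against sham averaged over the doses, Cacna1c passed in all 28 alternatives run (1.95 to 2.97, log2), Cacna1g in 25 of 26 and Cacna2d1 in 22 of 28; with the nuclear share as a covariate 1 of the 5 genes was called, against 3 without it. The cause was not tested for any value below. With 2 libraries a group, calls at a single dose depend on the fit. Calls among all genes moved with it too, so the counts below are not read as a result about the 5 genes. At vehicle, edgeR called 8 of 16723 genes higher and 2 lower. It called 972 and 137 of 24851 with no filter, and 211 and 22 of 14689 with only the groups compared. With the covariate it called 134 and 17. At 5 mg it called 0 genes, but 570 and 91 with no filter. At vehicle, where edgeR called 0, 2 were called by DESeq2, with no filter, with only the groups compared and without libraries 4 (AngII 5 mg) and 12 (sham 50 mg) together, and 1 with the covariate; left-out libraries gave 0 to 2. At 5 mg, also 0, 1 was called by DESeq2, with no filter and without numbers 4 and 12; left-out libraries gave 0 to 1. At 50 mg, where edgeR called 1, DESeq2 and no filter gave 3, and limma-voom, 1 CPM in 6 libraries, only the groups compared, mitochondrial and haemoglobin genes left out and counts divided by 4 gave 2. Both fits on log2(TPM + 1) gave 0, and left-out libraries gave 1 to 4. Of all genes at 50 mg, edgeR called 675 higher and 231 lower, 1541 and 687 with no filter, and 1263 and 591 with only the groups compared. It called 809 and 346 with 1 CPM in 6 libraries and 900 and 386 with counts divided by 4. On log2(TPM + 1) limma called 12 and 7 with the filter and 5 and 13 without. With no filter, 1 was called lower for 50 mg in sham and 1 higher in the interaction at 50 mg. There edgeR called 214 genes higher and 140 lower in sham, and 97 and 134 in the interaction.

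Signs turned for values near 0. Cacna1h averaged 0.18 with the covariate and 0.070 on log2(TPM + 1), and at 50 mg it was -0.13 with limma-voom, -0.16 and -0.48 with the length and GC trends removed and -0.022 with counts divided by 4. At 5 mg on log2(TPM + 1) it was 0.026. Cacnb2 at 5 mg was 0.32 on log2(TPM + 1) with and without a filter, 0.36 on log2(TPM + 0.1) and 0.13 without numbers 4 and 12. Without those 2, Cacna1c was 0.0587 for 5 mg in AngII and 0.31 in the interaction at 5 mg. Cacna1h for 50 mg in AngII was 0.0134 with the covariate and 0.0018 on log2(TPM + 1).

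Leaving out 1 library gave, for Cacna1h, -0.21 to 0.28 averaged, -0.13 to 1.23 at vehicle, -1.11 to 0.39 at 5 mg and -0.47 to 0.44 at 50 mg. It gave -1.11 to 0.17 for Cacnb2 at 5 mg. For 5 mg in AngII it gave -1.40 to 0.0591 for Cacna1c and -0.14 to 0.57 for Cacna2d1, and for 50 mg in AngII -0.60 to 0.49 for Cacna1h. For sham it gave -0.65 to 0.30 for Cacna1c and -0.24 to 1.49 for Cacna1h at 5 mg, and -0.18 to 1.11 for Cacna1h at 50 mg. Interactions ran from -1.14 to 0.31 for Cacna1c and -0.16 to 0.55 for Cacna2d1 at 5 mg, and from -1.21 to 0.18 for Cacna1h at 50 mg. The ratio of Cacna1g to Cacna1c ran from -1.17 to -0.66, Cacna2d1 to Cacnb2 from -0.26 to 0.16, Cacna1g to Cacnb2 from 0.58 to 1.18 and Cacna1h to Cacna2d1 from -0.87 to -0.50. The 5 ratios that passed did so in all 15 alternatives run. Counts divided by 4 and ribosomal RNA left out of the scaling were chosen after seeing the data. A filter of mean TPM of at least 1 left no value for Cacna1g and Cacna1h.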
